A study of Homo sapiens with 21 samples.

Results

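The effect of losing either of a pair of bZIP transcription factors was examined in THP1, a monocytic line from human acute myeloid leukemia, by RNA sequencing of 8 libraries from 4 CRISPR-edited single-cell clones against 5 control libraries. The knockout libraries were all those labelled ATF7 KO (Clone 1), ATF7 KO (Clone 2), JDP2 KO (Clone 1) and JDP2 KO (Clone 2), with 2 libraries of each clone, and the clones are named ATF7 clone 1 and 2 and JDP2 clone 1 and 2 from here on. The control libraries were replicates 1 and 3 of an shRNA control (a hairpin in pLKO.1), replicate 2 of wild-type cells, and replicates 1 and 2 of a knockout control. These 13 libraries are part of a series of 21, whose other libraries are knockdowns of the cofactor IRF2BP2 or 2 libraries that the labels mark as low quality. All 13 come from the same line grown in RPMI with serum. The edited cells received Cas9 and a guide in Lenti-CRISPRv2 and were then cloned by limiting dilution, so each clone descends from 1 cell. Cloning is described for the edited cells, and whether the knockout control is a clone is not given in the sources used here. Editing and cloning therefore cannot be told apart in these comparisons. The labels do not say whether libraries of 1 clone came from separate cultures, so each p-value reflects the variation between libraries and no more, and that variation may be technical.

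ATF7 and JDP2 belong to the basic leucine zipper (bZIP) family, whose members bind DNA as pairs. ATF7 is closely related to ATF2 and binds cyclic AMP response elements, with the palindrome TGACGTCA. JDP2 was found as a partner of JUN and is known mainly as a repressor at AP-1 elements, which read TGACTCA on one strand and TGAGTCA on the other, and at cyclic AMP response elements. The study's title places a heterodimer of both factors opposite IRF2BP2 in the control of inflammatory genes. Pooling both knockouts asks which genes differ from controls whichever partner was edited, and in all 4 clones.

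The messages of the targeted genes were examined first. ATF7 was 210.0 and 499 normalized counts in the shRNA control, 387 in wild type, 299.9 and 537 in the knockout control, 645 and 511 in ATF7 clone 1, and 617 and 363 in ATF7 clone 2. JDP2 was 5004 and 2966 in the shRNA control, 3560.4 in wild type, 5085 and 3438 in the knockout control, 3158 and 5693 in JDP2 clone 1, and 4652 and 5368 in JDP2 clone 2. For each targeted gene, its own knockout libraries overlapped the controls. The position of the edits is not given in the sources used here, and a small insertion or deletion can leave the level of a message as it was, so these values check no label.

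The 13 libraries held 28.7 to 60.2 M reads in genes, with 14575 to 18875 genes detected. All expressed the monocytic leukemia markers LYZ (12307 to 76328 normalized counts), SPI1 (7155 to 45680), CEBPA (17715 to 93102) and ELANE (17058 to 156725), while MPO stayed between 16.6 and 53.2. None of the 8 tested markers of T, NK and B cells, 4 of erythroid cells and megakaryocytes or 13 of epithelial and stromal cells passed the pooled limma test. At an unadjusted p under 0.05 there were 2, 2 and 0 of them, against 3763 of all 12986 genes tested. JDP2 clone 1 replicate 2 stood apart, with 34.9% of genes more than 1 log2 unit from the median of the 13 libraries. In ATF7 clone 2 replicate 1 this share was 15.1%, and in the other 11 libraries it was 3.39 to 9.68%.

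Of 12986 genes tested, 1042 (8.02%) differed between the 8 knockout and 5 control libraries at a limma adjusted p under 0.05 with the line (clone or kind of control) as a random block. Of these, 475 rose (3.66%) and 567 fell (4.37%). Among the larger changes losses outnumbered gains, as 208 genes fell by more than 1 log2 unit and 78 rose by as much. In 3 of the 1042 genes the 4 clone means did not all lie on 1 side of the control mean. The choice of genes by the pooled difference largely fixes this, and over all genes tested the 4 means were on 1 side in 53.3%. The estimated correlation within lines was -0.14, below 0, which makes this fit more permissive than one that treats libraries as independent. Without the line block 311 genes passed (2.39%), of which 72 rose (0.554%) and 239 fell (1.84%), and all 311 were among the 1042. With the libraries averaged by line, 0 genes passed in limma (0%), the smallest adjusted p was 0.0511 and 3764 genes had an unadjusted p under 0.05. The count also turned on single libraries. It was 50 without knockout control replicate 2, 90 without JDP2 clone 1 replicate 1, 192 and 389 without shRNA control replicate 3 or 1, 344 without the wild type, and 535 without knockout control replicate 1. It was 321 and 411 without JDP2 clone 2 replicate 1 or 2, 647 without ATF7 clone 2 replicate 2, and 1710 to 1954 without ATF7 clone 2 replicate 1 or either library of ATF7 clone 1.

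Separation of the libraries needs no model. All 8 knockout libraries lay above all 5 controls in 198 genes (1.52%) and below them in 238 (1.83%), 436 genes in all (3.36%). A core of 79 genes was then taken as those that did not overlap and passed 3 fits. These were the line block fit, the fit without it, and a fit with the replicate number as a block, which called 113 genes (0.87%). Replicate number 3 is held by shRNA control replicate 3 alone, so in that last fit this library does not bear on the knockout difference. This core was defined after the data were seen. Separate groups and passing p-values follow from its definition, so below they describe its genes and add no support. The core held 75 genes that fell (0.578%) and 4 that rose (0.0308%), and the next paragraphs describe it. Its genes are set in order by their known roles, which were looked at after the values were seen, so the order gives no count or test of any role. All 79 kept their direction under every alternative that was run and tested them. Their separation largely fixed this where only libraries, controls, filters or blocks were changed. The number called depended on the controls. Against the knockout control alone, 58 of the 75 falls and 2 of the 4 rises passed, and against the shRNA control and wild type alone, 11 falls and 0 rises. Without knockout control replicate 2, 42 falls and 2 rises passed, and with JDP2 clone 2 left out, 48 falls and 3 rises.

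The mitochondrial assembly factor ATPAF1 helps build the F1 part of ATP synthase. It was the only gene that fell in each of the 4 clones when each was compared with the 5 controls (0.0077% of genes). No gene rose in each (0%). ATPAF1 lies on chromosome 1 at 46632737 to 46668557 in hg38. Its level was 196 and 299 normalized counts in the shRNA control, 343 in wild type, and 209.7 and 185 in the knockout control. It was 33.4 and 33.6 in ATF7 clone 1, 35.9 and 52.8 in ATF7 clone 2, 38.0 and 57.8 in JDP2 clone 1, and 23 and 13.5 in JDP2 clone 2. The highest knockout library, at 57.8, lay well below the lowest control, at 185. The pooled difference was -2.80 ± 0.30 (SE) on the log2 scale with a limma adjusted p of 0.000402, a 6.85-fold lower mean. The clone differences were -2.80 and -2.43 for ATF7 and -2.33 and -3.69 for JDP2, each ± 0.38 (SE), with limma adjusted p from 0.000226 to 0.00719. Without either library of ATF7 clone 1, or without ATF7 clone 2 replicate 1, no gene passed in each clone. Under quantile normalization the genes that did were AP1S3, NDUFB4 and RPL10A, and against the knockout control alone they were NDUFB4, ALKBH2, MANBAL, ABCF2 and H2AZ1. Without JDP2 clone 1 replicate 1 there were 5, which were ATPAF1, NDUFB4, NLRP3, FBXO8 and NTRK3, and without the wild type or without JDP2 clone 1 replicate 2 there were 2, ATPAF1 and NDUFB4.

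NDUFB4, an accessory subunit of respiratory complex I, was 8353 and 6811 in the shRNA control, 3417 in wild type, and 10756 and 12281 in the knockout control. In the knockouts NDUFB4 was 2097 and 1789 in ATF7 clone 1, 756 and 1246 in ATF7 clone 2, 883 and 996 in JDP2 clone 1, and 918 and 716 in JDP2 clone 2. All 8 lay below the wild-type library, the lowest control, and the difference was -2.83 ± 0.30 (SE) on the log2 scale, with a limma adjusted p of 0.000402. In ATF7 clone 1 alone, NDUFB4 did not pass (-1.98 on the log2 scale, adjusted p = 0.065). SF3B5, a small subunit of the SF3b complex of the spliceosome, averaged 10151 ± 3649 (SD, n = 5) in controls and 1971 ± 1406 (SD, n = 8) in knockouts, a difference of -2.59 ± 0.39 (SE) on the log2 scale. ATF7 clone 1 was the highest of the clones for SF3B5 too, at 4624 and 3601. The glycolytic enzyme aldolase C, ALDOC, fell by 2.94 on the log2 scale (SE 0.52), the steepest fall of the core, from 456 to 1617 in controls to 25.9 to 332 in knockouts. AP1S3, a small subunit of the AP-1 clathrin adaptor and unrelated to the AP-1 transcription factor, fell from 34.8 to 75.0 in controls to 2.40 to 20.8 in knockouts, a difference of -2.60 ± 0.42 (SE) on the log2 scale. DMAC2L, first named as a coupling factor of ATP synthase, fell by 1.01 on the log2 scale (SE 0.19).

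**Figure D1:**
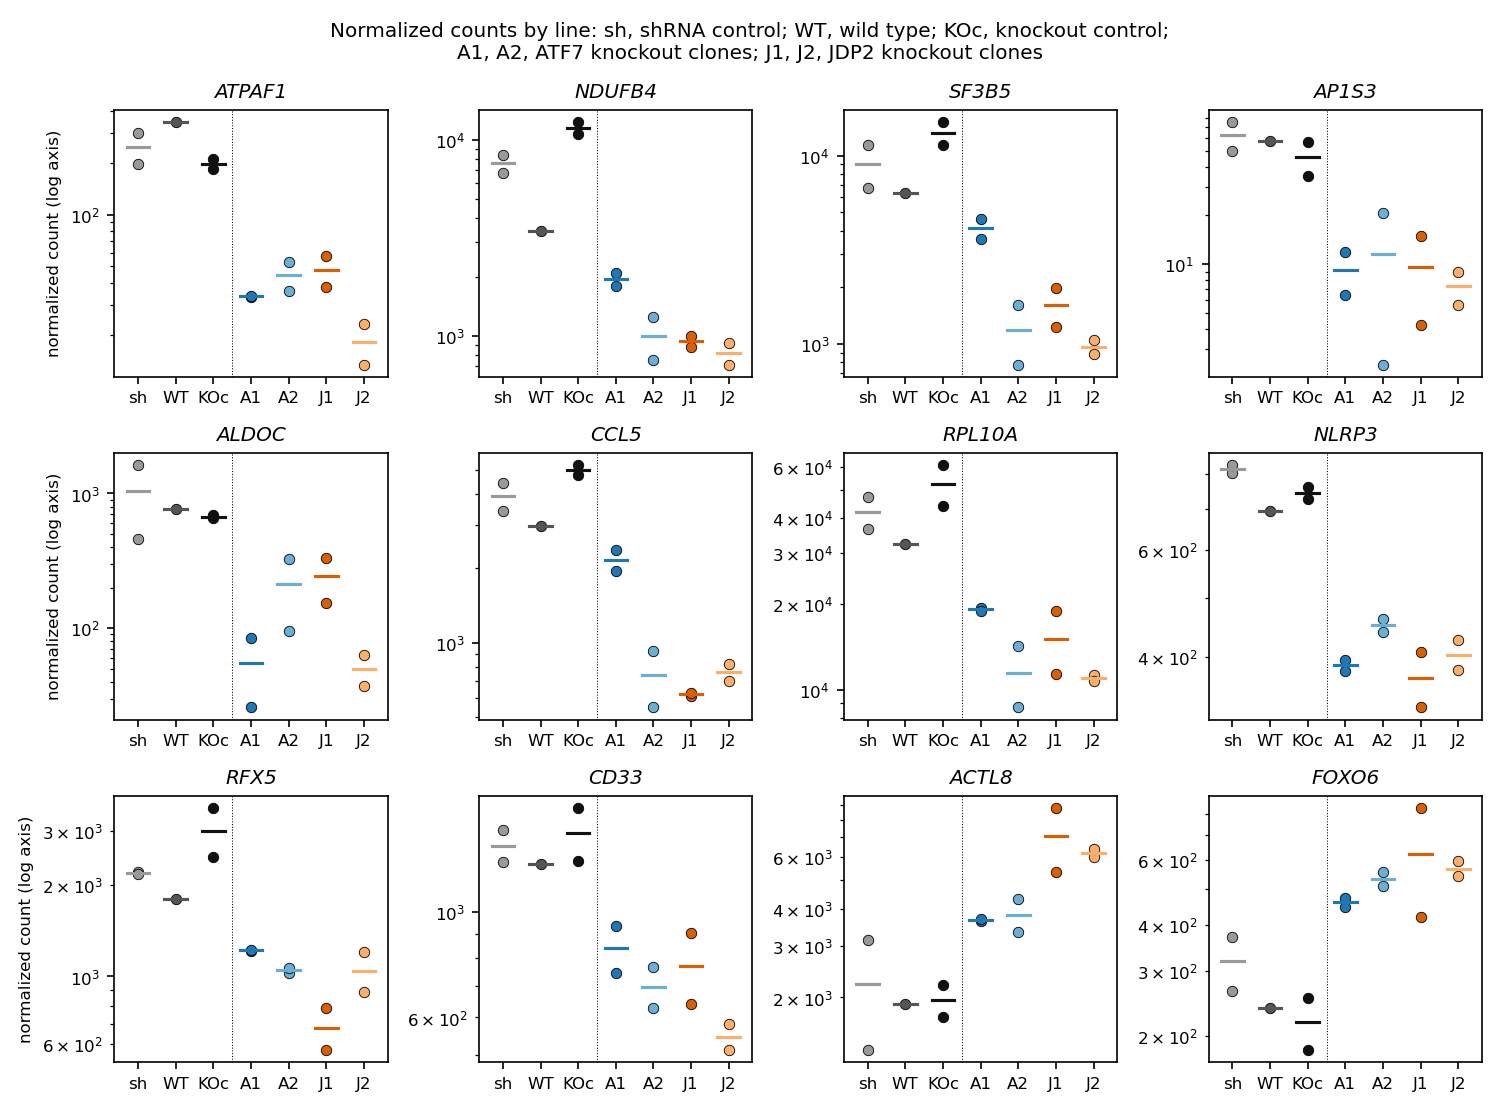
Normalized counts (log axis) of 12 genes in the 13 libraries, grouped by line, with points for libraries and bars for the mean of each line. For ATPAF1, NDUFB4, SF3B5, AP1S3 and ALDOC all 8 knockout libraries lie below the 5 controls, and for ACTL8 and FOXO6 all 8 lie above.

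The core also held CCL5, NLRP3, CD33, STAT5B, GAB2 and TRAF3IP2. CCL5 is the only core gene among 18 tested cytokines and chemokines, and NLRP3 the only one among 29 Toll-like receptor and inflammasome genes. Core falls were 0.578% of all genes tested. CCL5, a chemokine that draws T cells and monocytes, was 4428 and 3405 in the shRNA control, 2984 in wild type, and 5230.2 and 4774 in the knockout control. CCL5 was 2377 and 1959 in ATF7 clone 1, and between 547 and 929 in the 6 other knockout libraries. The pooled difference for CCL5 was -2.16 ± 0.32 (SE) on the log2 scale (limma adjusted p = 0.00401). It is the one core gene that also differed among the 4 clones (F test adjusted p = 0.0339), at -0.92 in ATF7 clone 1 and -2.42 to -2.72 in the other clones. NLRP3, the sensor of the best known inflammasome, was tight within both groups, at 762 ± 53.7 (SD, n = 5) in controls and 402 ± 41.0 (SD, n = 8) in knockouts. The knockout libraries ranged from 330.1 to 462 and the controls from 694 to 826, a difference of -0.93 ± 0.12 (SE) on the log2 scale with a limma adjusted p of 0.00171. CD33, a sialic acid receptor of myeloid cells that is a target of antibody therapy in this leukemia, fell from 1395 ± 174 (SD, n = 5) to 714 ± 151 (SD, n = 8), by 0.99 on the log2 scale (SE 0.16). STAT5B, which carries cytokine signals to the nucleus, fell from 3049.7 ± 605 to 1556 ± 347 (SD), and the signalling adaptors GAB2 and TRAF3IP2 fell by 1.21 and 1.35 on the log2 scale.

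RFX5 is the DNA-binding part of the complex that recruits CIITA to the promoters of MHC class II genes. RFX5 was 2205 and 2166 in the shRNA control, 1798 in wild type, 2458 and 3565 in the knockout control, and 572 to 1221 over the 8 knockout libraries. All 8 lay below the lowest control, the wild type. The difference was -1.30 ± 0.20 (SE) on the log2 scale (limma adjusted p = 0.00401). Its relative RFX8 fell by 1.54 on the log2 scale (SE 0.26), from 424 to 665 in controls to 86.4 to 399 in knockouts. CIITA itself was 280.4 to 389.8 in controls. CIITA was 144 and 189 in ATF7 clone 1, 200.2 and 188 in ATF7 clone 2, 32.7 and 22.4 in JDP2 clone 1, and 88.9 and 158 in JDP2 clone 2. The groups did not overlap, but the fall varied among clones (F test adjusted p = 0.00182), and the pooled difference of -1.81 ± 0.47 (SE) on the log2 scale passed with the line block (limma adjusted p = 0.0335) and not without it (0.0517). CIITA was 1 of the 4 MHC class II genes that could be tested, of 13 in the list. The 3 others did not pass, and the median of the 4 was -1.47 on the log2 scale, against 0.0038 over all genes. By clone it was -0.43 and -0.997 in the ATF7 knockouts and -2.09 and -0.60 in the JDP2 knockouts, so JDP2 clone 1 was lowest. Without the filter on low values, 12 genes of the list gave a median of -0.11.

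Of 79 tested cytosolic ribosomal proteins, 3 were in the core, whose falls were 0.578% of all genes tested. RPL10A fell from 44257 ± 11040.3 (SD, n = 5) to 14171 ± 4291 (SD, n = 8), by 1.68 on the log2 scale (SE 0.21, limma adjusted p = 0.00171). RPL19 fell by 1.97 (SE 0.33) and RPS20 by 2.02 (SE 0.32) on the log2 scale. For RPL19 the knockout control stood far above the other controls, at 98408 and 83181 normalized counts against 22081 to 42265 in the shRNA control and wild type, and the knockouts ranged from 7981 to 18683. The same order held for the tubulins TUBB and TUBA1B. TUBB was 33204 and 34826 in the knockout control, 8958 to 14335 in the shRNA control and wild type, and 3008 to 7466 in the knockouts, a fall of 1.53 on the log2 scale (SE 0.31). Ribosomal protein and tubulin genes have near-identical copies elsewhere in the genome, so their counts are uncertain to the extent that reads were shared. MRPL24 of the mitochondrial ribosome fell by 1.35 on the log2 scale (SE 0.27), and OST4, a small subunit of the enzyme that attaches sugar chains to new proteins, by 1.37 (SE 0.21).

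MPI, which makes mannose-6-phosphate for glycan synthesis, fell from 1834 ± 602 (SD, n = 5) to 652 ± 257 (SD, n = 8) and by 1.53 on the log2 scale (SE 0.26). GALT, the enzyme of galactose breakdown that is deficient in classic galactosemia, fell from 285 to 434 in controls to 75.9 to 189 in knockouts, by 1.53 on the log2 scale (SE 0.23, limma adjusted p = 0.00401). PIGL, an early enzyme of GPI anchor synthesis, fell by 1.83 on the log2 scale (SE 0.34), to 274 and 295 in ATF7 clone 1 and to 50.3 to 155 in the other clones. The COPI coat subunit COPG1, which acts in vesicle traffic, fell from 3819 ± 471 (SD, n = 5) to 1712 ± 387 (SD, n = 8), by 1.19 on the log2 scale (SE 0.16, limma adjusted p = 0.00171). VPS25 of the ESCRT-II complex fell by 1.40 and VPS11 of the endosomal tethering complexes by 1.04 on the log2 scale. For VPS25 the knockout control was 1979 and 2305, while the shRNA control and wild type were 620.1 to 779 and the knockouts 257 to 522.

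ERCC3, the helicase of TFIIH that opens DNA in nucleotide excision repair and transcription, fell from 1645 ± 473 (SD, n = 5) to 651 ± 139.9 (SD, n = 8), by 1.33 on the log2 scale (SE 0.18, limma adjusted p = 0.00203). FANCE of the Fanconi anemia complex fell by 0.87, TRAIP, a ubiquitin ligase of the replication fork, by 0.92, and MMS19, which delivers iron-sulfur clusters to repair enzymes, by 0.85 on the log2 scale. TDP2, which frees DNA ends from topoisomerase adducts, was 1129.9 to 1778 in controls and 656 to 994 in knockouts, a difference of -0.84 ± 0.14 (SE) on the log2 scale. ALKBH2, which removes alkyl groups from DNA, varied little among the knockouts, at 193 ± 21.7 (SD, n = 8). Its controls were 252 in wild type, 403 and 456 in the shRNA control, and 972 and 1114 in the knockout control.

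METTL3, the catalytic subunit of the enzyme that writes N6-methyladenosine on messenger RNA and on which leukemia cells are known to depend, was 1079.8 and 1267 in the shRNA control, 1043 in wild type, and 1444 and 1209 in the knockout control. METTL3 was 809.6 and 742 in ATF7 clone 1, 560.0 and 575 in ATF7 clone 2, 508 and 431 in JDP2 clone 1, and 523 and 679 in JDP2 clone 2. The groups were separate, and the difference was -1.02 ± 0.16 (SE) on the log2 scale with a limma adjusted p of 0.00481. TAF8, a subunit of the general factor TFIID, fell from 1322 ± 217 (SD, n = 5) to 679 ± 62.1 (SD, n = 8), by 0.96 on the log2 scale (SE 0.13), and its 4 clone differences lay between -0.84 and -1.08. MLLT10, known as a fusion partner in acute leukemia, fell by 1.36 (SE 0.18), and MTF2, an accessory subunit of Polycomb repressive complex 2, by 0.79 (SE 0.14) on the log2 scale. At the edge of the core, NTPCR, a nucleoside triphosphatase, fell least, by 0.64 on the log2 scale (SE 0.15).

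**Figure D2:**
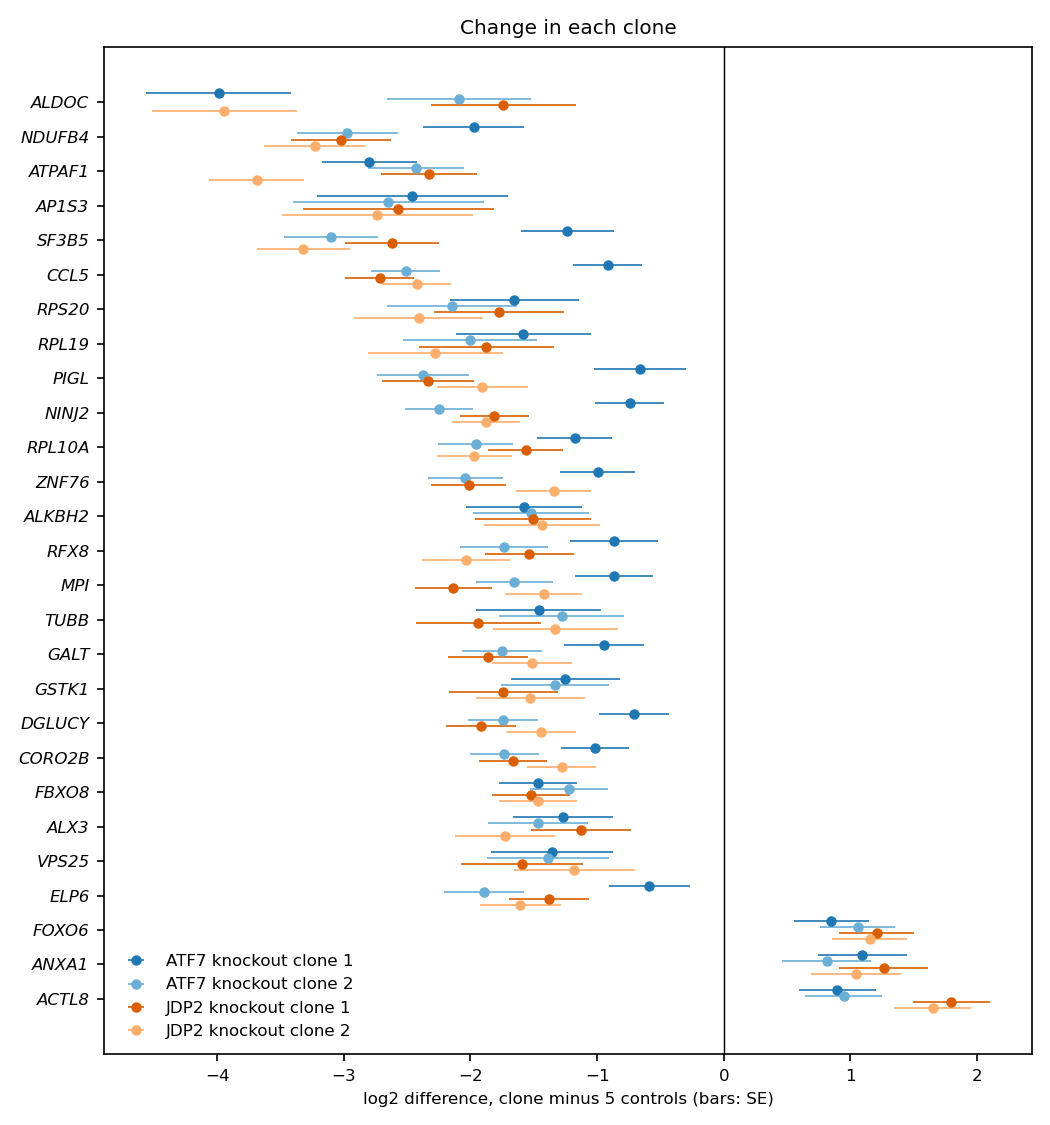
Log2 difference of each clone from the 5 controls, with standard errors, for the 24 core genes with the largest falls and for ACTL8, FOXO6 and ANXA1. The 4 clones share the control libraries. ATPAF1 lies at -2.33 or lower in every clone, and CCL5 at -0.92 in ATF7 clone 1 and -2.42 or lower in the others.

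Rises that met the same conditions were few. ACTL8, an actin-like protein of the testis, was 3127 and 1323 in the shRNA control, 1897 in wild type, and 1716 and 2199.9 in the knockout control. ACTL8 was 3645 and 3689 in ATF7 clone 1, 3331 and 4321 in ATF7 clone 2, 5328 and 8787 in JDP2 clone 1, and 5988 and 6382 in JDP2 clone 2. All 8 knockouts were higher than all controls, with a difference of 1.32 ± 0.23 (SE) on the log2 scale and a limma adjusted p of 0.00853. FOXO6, a forkhead transcription factor, rose from 261 ± 68.9 (SD, n = 5) to 546 ± 128 (SD, n = 8), by 1.06 on the log2 scale (SE 0.18). With a GC and length trend removed from each library, the FOXO6 difference was 0.15 on the log2 scale and did not pass (limma adjusted p = 0.776), and ACTL8 and ANXA1 passed at 1.31 and 1.15. ANXA1, which encodes the anti-inflammatory phospholipid-binding protein annexin A1, rose from 153 to 401 in controls to 406 to 751 in knockouts, also by 1.06 (SE 0.21), and the highest control nearly touched the lowest knockout. The gene listed as ENSG00000286022, which has no symbol in the table, rose by 1.44 on the log2 scale (SE 0.25), with 1210.2 in JDP2 clone 1 replicate 2 and 328 to 432 in the other 7 knockouts.

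Larger rises were less even. ZG16B, a secreted lectin, rose by 2.82 on the log2 scale (SE 0.72, limma adjusted p = 0.0321), from 1.87 to 17.4 in controls to 176 and 217 in ATF7 clone 1, while ATF7 clone 2 had 27.8 and 6.0 and overlapped the controls. LIMS2, an adaptor of integrin adhesions, rose by 1.98 (SE 0.42), with controls of 131 to 214 and knockouts of 200.2 to 1952. TXNDC5, a disulfide isomerase of the endoplasmic reticulum, rose by 1.96 (SE 0.41), although knockout control replicate 1, at 1080.2, lay above knockouts of 419.8 and 992. MMP9, a matrix protease of monocytes, rose by 1.80 (SE 0.49, limma adjusted p = 0.0383). MMP9 was 1480.2 to 3297 in ATF7 clone 1 and both JDP2 clones and 367 and 569 in ATF7 clone 2, within the control range of 196 to 753. Without the line block, LIMS2 and TXNDC5 still passed (limma adjusted p of 0.0345 and 0.0357), and ZG16B and MMP9 did not (0.0515 and 0.0588).

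Several of the deepest falls differed in size among the clones. PRDX2, a peroxidase that removes hydrogen peroxide, was 1353 to 3952 in controls, 38.8 and 41.2 in ATF7 clone 1, 999 and 2021 in ATF7 clone 2, 0 and 82.0 in JDP2 clone 1, and 8.32 and 20.2 in JDP2 clone 2. Its pooled difference of -5.48 ± 1.29 (SE) on the log2 scale (limma adjusted p = 0.0264) averages clones that differed from one another (F test adjusted p = 0.0364). CXCL16, a chemokine and scavenger receptor, was 222 to 356 in controls and 219 and 389.7 in JDP2 clone 1, but 7.68 to 44.0 in the other clones. Its pooled difference was -2.86 ± 0.77 (SE) on the log2 scale, with an adjusted p of 6.53e-05 in the F test among clones. CD68, a lysosomal glycoprotein of macrophages, was 484 to 766 in ATF7 clone 2 and JDP2 clone 1, against 1813 to 4856 in controls and 1772 to 2677 in the other clones. The CD68 fall (-1.47 ± 0.43, SE, on the log2 scale, limma adjusted p = 0.0452) did not pass without JDP2 clone 1 replicate 2 (0.0570). In all, 114 genes differed among the 4 clones (0.878%), 12 of them pooled calls. That count was 1364 without JDP2 clone 1 replicate 1, 214 without replicate 2 of that clone, and 68 and 72 without replicate 1 or 2 of ATF7 clone 1.

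Compared with the controls clone by clone, in 1 fit whose estimate of spread is shared over the 13 libraries, the clones gave unequal counts. ATF7 clone 1 had 3 genes higher (0.0231%) and 35 lower (0.27%), and ATF7 clone 2 had 4 higher (0.0308%) and 253 lower (1.95%). JDP2 clone 1 had 452 higher (3.48%) and 455 lower (3.5%), and JDP2 clone 2 had 7 higher (0.0539%) and 114 lower (0.878%). With array weights, which give unlike libraries less weight, the order of the JDP2 clones was exchanged, at 7 higher and 122 lower in clone 1 and 844 higher and 928 lower in clone 2. ATF7 clone 1 then had 23 higher and 89 lower, and ATF7 clone 2 had 1 higher and 190 lower. JDP2 clone 1 contains the library that stood apart, and without it the clone is left with a single library. Because the spread is shared, that library bears on the counts of every clone, and the order of the clones by count depends on it. In that library, genes over 60% GC lay a median of 1.11 log2 units above their level over the 13 libraries. Mitochondrially encoded genes took 0.971% of its reads, against 2.33 to 5.57% in the other libraries. At least 3 clones called 62 genes lower (0.477%) and 0 higher (0%). The 4 comparisons share the 5 control libraries, so these joint counts are not independent of one another.

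The knockouts were also compared with each other, without the controls setting the direction. NOD2, an intracellular sensor of bacterial cell wall fragments, was the single gene that differed between the JDP2 and ATF7 knockouts (0.0077%), by 1.90 ± 0.25 (SE) on the log2 scale (limma adjusted p = 0.0192). NOD2 was 134 to 153 in controls, 67.9 and 58.6 in ATF7 clone 1, 72.9 and 33.6 in ATF7 clone 2, 309.9 and 136 in JDP2 clone 1, and 245 and 195 in JDP2 clone 2. The ATF7 clones were all below the controls and the JDP2 clones at or above them, so the pooled comparison averaged opposite differences to -0.38 ± 0.43 (SE). In the limma fit with the line block 762 of 12986 genes had an unadjusted p under 0.05 in that comparison. With no difference at all, a share of about 0.05 of genes would have one. Without the block 0 genes passed. Leaving out 1 library gave 0 to 7 genes. It gave 7 without ATF7 clone 1 replicate 2, 6 without ATF7 clone 2 replicate 2 or JDP2 clone 2 replicate 2, and 0 without the wild type, knockout control replicate 2 or JDP2 clone 1 replicate 1. The small number of calls does not show that the knockouts act alike.

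Among the lists of related genes, the bZIP family and its IRF2BP cofactors had 8 of 38 tested members higher and 0 lower, with a median of 0.27 on the log2 scale, against 3.66% of all genes called higher and a median of 0.0038. CEBPB, a driver of monocyte and inflammatory genes, rose from 7587 ± 2662 (SD, n = 5) to 16483 ± 6686 (SD, n = 8), by 1.11 on the log2 scale (SE 0.23, limma adjusted p = 0.0169), and all 8 knockouts were above all 5 controls. Its highest library was JDP2 clone 1 replicate 2 at 31665, and the others were 11448 to 18316. With a GC and length trend removed from each library, CEBPB was 0.55 higher on the log2 scale (limma adjusted p = 0.0487), and BATF3 at 0.42 did not pass (0.194). CREM, a relative of CREB, rose by 0.75, BATF3, a partner of JUN, by 0.85, CEBPE, a factor of granulocyte maturation, by 0.88, and MAFK, a small MAF protein, by 0.91 on the log2 scale. The stress factors ATF4 and ATF5 rose by 0.53 and 0.88, and the cofactor IRF2BPL by 0.57. Without the line block 3 of the 8 passed, and with the GC and length trend removed the list's median was 0.18. FOS (-0.13 ± 0.23, SE) and ATF3 (0.38 ± 0.26) did not pass, with limma adjusted p of 0.727 and 0.346. Nor did the bZIP partners ATF2, CREB5, JUN and JUNB.

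The unfolded protein response had 7 of 26 members higher and 0 lower, against 3.66% and 4.37% of all genes, with a median of 0.35 on the log2 scale that was 0.19 under quantile normalization. SEC61B, part of the channel into the endoplasmic reticulum, was 5908 and 4011 in the shRNA control, 6050.2 in wild type, and 5806 and 3532 in the knockout control, and 7162 to 16333 in the knockouts. The highest value was that of JDP2 clone 1 replicate 2, the library with raised high-GC genes, and the other 7 reached 10216. The groups did not overlap, and the difference was 0.91 ± 0.19 (SE) on the log2 scale (limma adjusted p = 0.0168). MANF, a secreted protein induced by stress of that compartment, rose by 0.98 (SE 0.21), although knockout control replicate 1 at 6083 lay above 2 knockouts of 4946 and 4944. The chaperones and folding factors CALR, DNAJB11, SDF2L1 and CRELD2 rose by 0.72, 0.87, 1.10 and 1.03, and the ubiquitin ligase SYVN1 by 0.54 on the log2 scale. Without the line block 2 of the 7 passed.

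**Figure D3:**
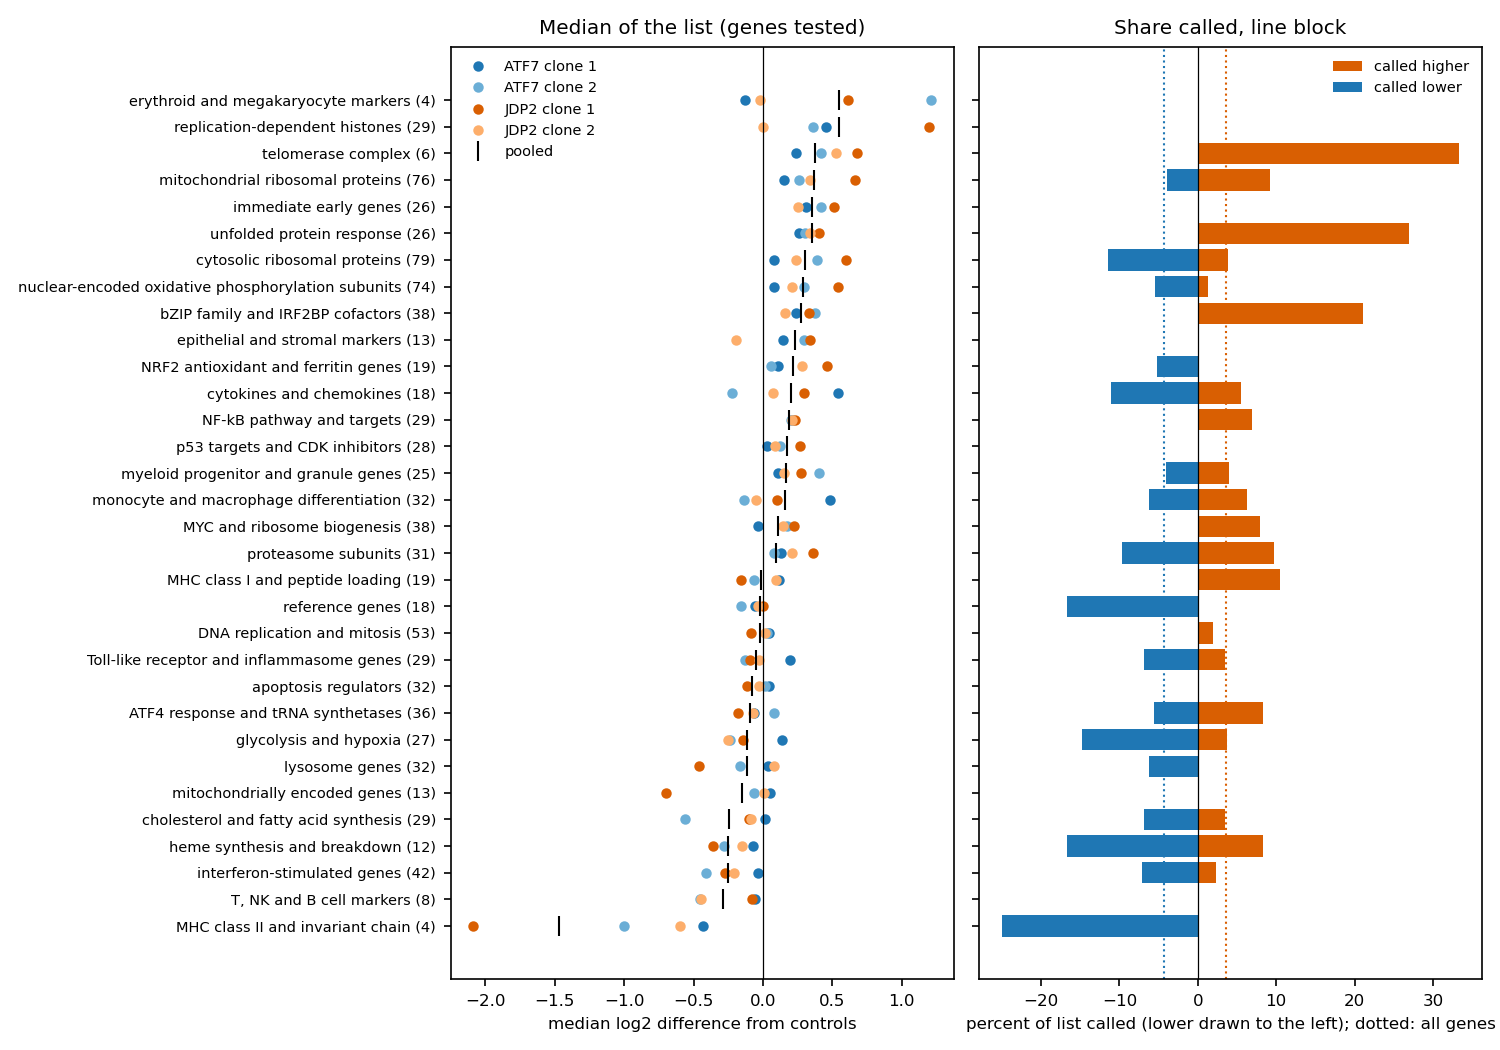
For each list of related genes, the median log2 difference of its tested members in each clone and the percent of members called higher or lower in the pooled fit. The unfolded protein response and the bZIP list have calls in the higher direction only, and cytosolic ribosomal proteins in both.

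Other housekeeping lists had calls in both directions, to be read against 3.66% of all genes higher and 4.37% lower. Of 79 cytosolic ribosomal protein genes 9 fell and 3 rose, while the median of the list was 0.30 on the log2 scale, so its calls and its median differ in sign. That median was 0.10 under quantile normalization and 0.15 with array weights. Those that fell included RPLP0 (-1.32) and RPL12 (-1.44), beside the core genes, and RPL17 (0.68), RPL27A (0.64) and RPL29 (0.66) rose. Falls of mitochondrial ribosomal proteins and of oxidative phosphorylation subunits were near the share over all genes. Of 76 mitochondrial ribosomal proteins 7 rose and 3 fell, and of 31 proteasome subunits 3 rose and 3 fell. Of 74 nuclear-encoded subunits of oxidative phosphorylation 4 fell, namely NDUFB4, SDHA (-1.24), NDUFA3 (-1.09) and UQCR10 (-1.45), and NDUFV3 rose (0.71). Of 27 genes of glycolysis and hypoxia 4 fell, namely ALDOC, GPI (-0.99), ENO2 (-1.03) and TPI1 (-0.73), and the lactate exporter SLC16A3 rose (0.73). None of 13 mitochondrially encoded genes, 29 replication-dependent histones, 32 apoptosis regulators, 28 p53 targets and CDK inhibitors or 26 immediate early genes passed in limma. At an unadjusted p under 0.05 these counts were 0, 7, 9, 5 and 3, against 3763 of all 12986 genes tested. Of 53 genes of DNA replication and mitosis 1 passed, TYMS (0.63).

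The inflammatory genes that the study's title points to gave a mixed picture. CXCL8, the chemokine that draws neutrophils, was 26.9 and 20.6 in the shRNA control, 65.7 in wild type, and 28.3 and 9.22 in the knockout control. CXCL8 was 182 and 32.5 in ATF7 clone 1, 516 and 79.2 in ATF7 clone 2, 155 and 44.8 in JDP2 clone 1, and 154 and 24.7 in JDP2 clone 2. Replicate 1 stood above replicate 2 in each of the 4 clones, and the difference of 1.92 ± 0.58 (SE) on the log2 scale missed the threshold (limma adjusted p = 0.0504), which it met without JDP2 clone 1 replicate 2 (0.0474). CCL2, a monocyte chemokine, had the same order within clones, with 879 to 1511 in the first replicates, 112 to 294 in the second, and 85.3 to 402 in controls. Its difference was 1.44 ± 0.54 (SE) on the log2 scale (limma adjusted p = 0.0979). IL1B (0.30 ± 0.21), TNF (0.07 ± 0.50), C5AR1 (0.26 ± 0.46), CD86 (-0.32 ± 0.75) and OAS1 (-0.76 ± 0.26) did not pass either, with limma adjusted p of 0.0738 or above. Counts in the inflammatory lists were small, beside 3.66% of all genes higher and 4.37% lower. Of 18 cytokines and chemokines, CCL5 and CXCL16 fell and TGFB1 rose (0.76), and of 29 genes of the NF-kB pathway 2 rose, SDC4 (0.59) and RELB (1.05). RELB did not pass with the GC and length trend removed (0.54, limma adjusted p = 0.174). Of 42 interferon-stimulated genes 3 fell, IFITM2 (-1.64), PARP14 (-0.83) and DDX60 (-0.95), and 1 rose, ISG15 (1.07). Of 29 Toll-like receptor and inflammasome genes NLRP3 and NLRC5 (-0.60) fell and CGAS rose (0.48), all on the log2 scale. Of 32 genes of monocyte differentiation, FPR2 (0.70) and FCER1G (0.68) rose and CD68 (-1.47) and CSF1R (-1.18) fell. FCER1G and CSF1R did not pass without JDP2 clone 1 replicate 2 (0.0534 and 0.0623).

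Several of the genes that fell are neighbours on chromosome 6. When the tested genes were ordered along each chromosome, the run of 21 genes from SNRPC to KCTD20, at 34757406 to 36491143 in hg38, held 9 that fell, ZNF76, PPARD, FANCE, RPL10A, FKBP5, SRPK1, MAPK13, PNPLA1 and KCTD20. This window was picked for its count after the data were seen. The median window of 21 genes held 1, the next highest window apart from it held 6, and 44.0% of 12143 windows held none. In 17 of the 21 genes all 4 clone means were below the control mean, against 25.4% of all genes placed, and the median difference was -0.79 on the log2 scale. By clone the median was -0.50 and -0.96 in the ATF7 knockouts and -0.85 and -0.78 in the JDP2 knockouts. Relative to each gene's median over the 13 libraries, the 21 genes had a median of 0.09 to 0.86 log2 units in the controls and -0.51 to 0 in the knockouts, with shRNA control replicate 3 highest. The core genes there were ZNF76, a zinc finger protein (-1.59 ± 0.25, SE), FKBP5, a cochaperone of steroid receptors (-1.13 ± 0.18), FANCE and RPL10A. FKBP5 was 4398 to 9958 normalized counts in controls and 2034 to 3372 in knockouts. Among the genes between them, DEF6 (-0.08 ± 0.23), TEAD3 (-0.60 ± 0.19) and TULP1 (0.02 ± 0.31) did not pass. Falls also passed outside the window, in UQCC2 before SNRPC and in C6orf89, MTCH1, TBC1D22B, CMTR1 and CCDC167 past KCTD20. Most of the genes around these did not pass. The copy number of this region was not measured here.

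**Figure D4:**
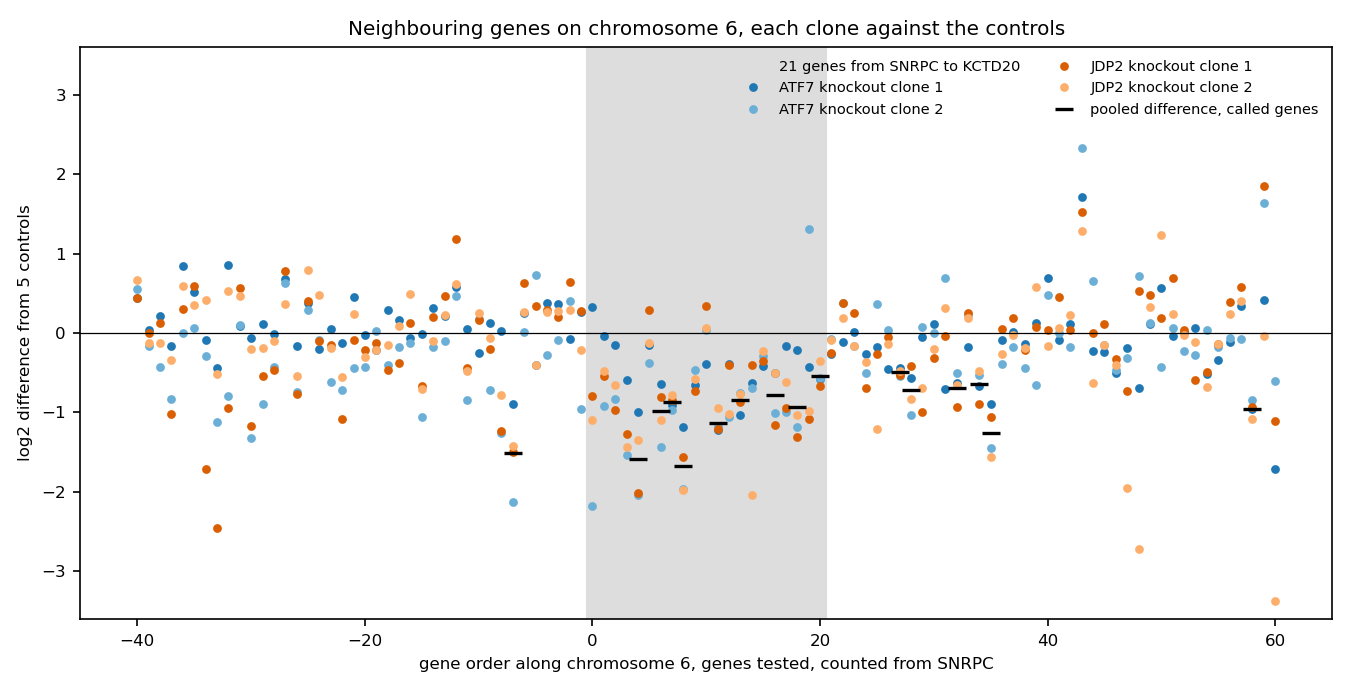
Log2 difference from controls for tested genes in order along chromosome 6, counted from SNRPC, with dots for the 4 clones, black bars for the pooled difference of called genes and shading over the window of 21 genes. Of the 21 shaded genes, 17 have all 4 clones below 0.

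The direction of the calls differed with base composition. Genes that rose had a median transcript GC content of 57.9%, against 50.8% for all tested genes and 51.9% for genes that fell. Among genes over 60% GC, 8.26% rose and 0.641% fell, and among genes at 42% GC or less, 0.935% rose and 2.18% fell. Falls were most frequent in between, at 8.38% of genes from 48 to 54% GC and 6.57% from 54 to 60%, where 3.81% and 2.96% rose. From 42 to 48% GC, 4.18% fell and 2.6% rose, so falls outnumbered rises in each bin up to 60% and rises outnumbered falls above it. JDP2 clone 1 replicate 2 carried the largest excess of high-GC genes, and in the other 7 knockout libraries their median lay between -0.09 and 0.27 log2 units from the gene median, against -0.63 to 0 in controls. When a GC and length trend was removed from each library, 905 genes passed and all 75 core falls were among them, as were 2 of the 3 core rises that could be tested, FOXO6 being the exception.

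**Figure D5:**
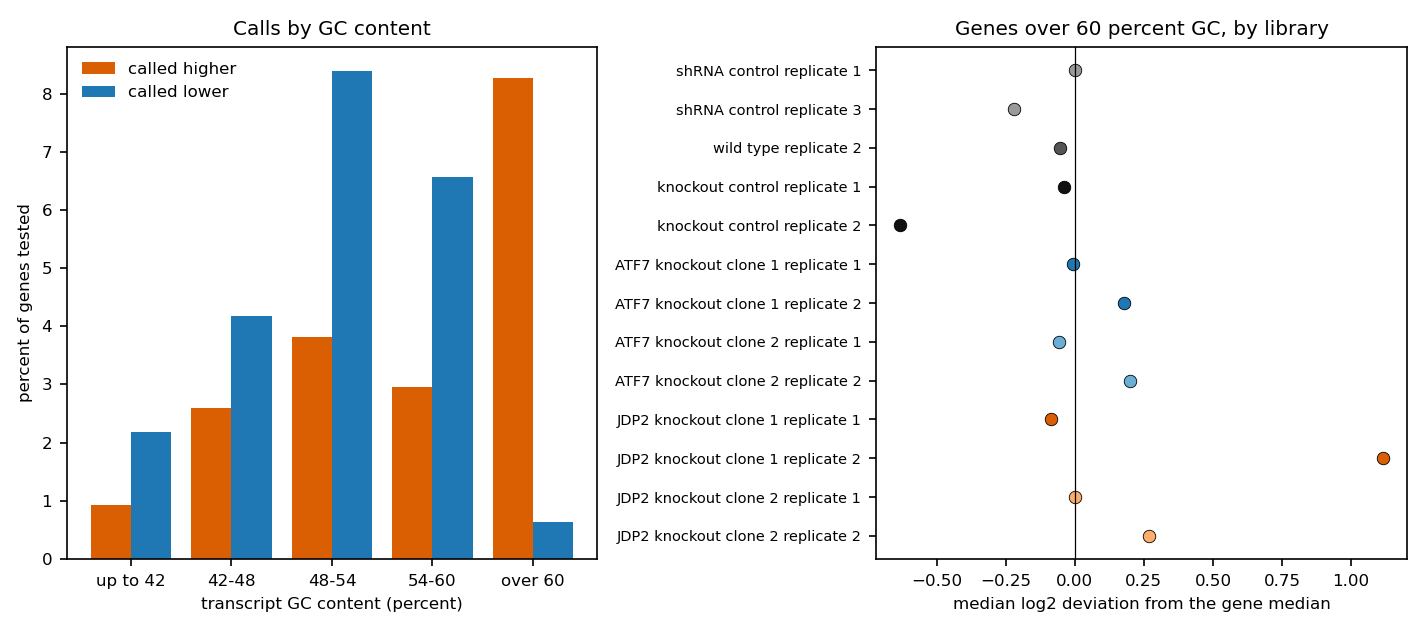
Percent of genes called higher or lower by transcript GC content (left), and median log2 deviation of genes over 60% GC in each library (right). Rises are most frequent above 60% GC, and JDP2 clone 1 replicate 2 lies at 1.11.

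Because ATF7 and JDP2 bind known elements, a promoter sequence at each gene's RefSeq start (GRCh38.p14) was searched on both strands. The motifs were the cyclic AMP response element TGACGTCA and the AP-1 element TGACTCA or TGAGTCA, neither of which contains the other. The searched sequence held the 250 bases upstream and may have run past the start, so the shares may count matches there. The promoters printed below show only the 250 bases upstream. A promoter was matched for 10622 of the 12986 genes, some of them through a synonym, which can belong to another gene. TGACGTCA was present in 3.21% of all promoters, 5.0% of those of genes that rose and 3.65% of those of genes that fell. The AP-1 element was present in 3.01% of all, 2.89% of rises and 3.65% of falls. Of the 64 matched promoters of core genes that fell, 0 held TGACGTCA and 1 held the AP-1 element, that of RFX5. Promoters are shown 5′ to 3′ on the gene's strand, with the motif in capitals, for RFX5 (chr1:151347253-151347502, minus strand), for CEBPE, a bZIP gene that rose (chr14:23119256-23119505, minus strand), for FADS1, a fatty acid desaturase that fell by 0.62 on the log2 scale and by 0.48, short of the threshold, with the GC trend removed (chr11:61817004-61817253, minus strand), and for ATPAF1, which has no match (chr1:46668558-46668807, minus strand).
RFX5: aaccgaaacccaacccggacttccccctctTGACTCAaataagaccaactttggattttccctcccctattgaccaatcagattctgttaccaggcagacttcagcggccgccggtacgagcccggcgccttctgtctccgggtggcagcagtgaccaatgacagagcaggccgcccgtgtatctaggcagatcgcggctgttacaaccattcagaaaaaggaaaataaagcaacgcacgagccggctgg
CEBPE: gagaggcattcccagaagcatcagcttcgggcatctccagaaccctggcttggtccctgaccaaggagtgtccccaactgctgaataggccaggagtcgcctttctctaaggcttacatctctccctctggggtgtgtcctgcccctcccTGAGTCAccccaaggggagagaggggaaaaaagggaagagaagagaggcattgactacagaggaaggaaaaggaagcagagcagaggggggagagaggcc
FADS1: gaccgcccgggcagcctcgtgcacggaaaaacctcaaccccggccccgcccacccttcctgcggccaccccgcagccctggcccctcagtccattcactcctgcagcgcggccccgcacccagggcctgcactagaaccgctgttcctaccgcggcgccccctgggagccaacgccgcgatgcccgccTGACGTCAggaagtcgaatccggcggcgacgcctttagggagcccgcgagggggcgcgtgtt
ATPAF1: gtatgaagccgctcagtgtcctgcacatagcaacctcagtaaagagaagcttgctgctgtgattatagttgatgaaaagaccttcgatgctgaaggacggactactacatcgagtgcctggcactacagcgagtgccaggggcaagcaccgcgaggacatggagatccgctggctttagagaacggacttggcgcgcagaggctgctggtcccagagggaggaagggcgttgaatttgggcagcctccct
The first base of the motif lies at -220 in RFX5, -100 in CEBPE and -62 in FADS1, counted from the start site. These are matches of letters, and binding was not measured in these libraries.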

How the data were processed

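RNA was sequenced from 13 THP1 libraries, 8 of ATF7 or JDP2 knockout clones and 5 of controls. The submitters' processing notes list featureCounts, DESeq2 and the hg38 build, with no versions. Neither the aligner nor use of strand is given in the sources used here, and reads of overlapping or antisense genes cannot be told apart. In the table the authors deposited, each value is a signal, the count of reads over the library's DESeq2 size factor, called a normalized count here. The values were whole multiples of 1 step per library within 0.01, for 100% of values, so counts were recovered for alternative tests. The authors also deposited comparison tables with a signal mean, a log2 fold change with its standard error, a Wald score and p-values, which were not used for the results above.

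Values were taken as log2(value + 1), which understates changes of low genes, for 12986 of 20423 genes with a mean of at least 10 over the 13 libraries. They were tested with limma 3.58.1 in R 4.3.3 (empirical Bayes with a trend, line as a random block) and called where the adjusted p (Benjamini-Hochberg) was under 0.05. One fit with a group for each clone gave the clone differences and the F test among clones. With simulated counts for 12986 genes, the pooled fit recovered 66% of genes changed by 1 log2 unit and 100% at 2, and called 0.0939% of unchanged genes. A call in each of 4 clones recovered 1% and 78%. The simulated counts held no differences between lines or kinds of control and no library that stood apart. These rates therefore do not carry over to the calls in the real libraries. edgeR 4.0.16 and DESeq2 1.42.0 on recovered counts, other scalings, filters, blocks and control sets, and leaving out libraries or clones were alternatives.

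The groups compared, the members and the gene lists were chosen with earlier results of these data known. The named genes are ATF7, JDP2 and IRF2BP2 (pooled difference 0.26 ± 0.15, SE, on the log2 scale, not called), the 12 largest called rises and falls with a symbol, a mean of at least 50 in either group and 4 clone means on 1 side, up to 2 members per list by lowest p, a set of inflammatory and bZIP genes, and 4 calls by the F test. Core, list and window genes were added after their values were seen. The highest correlation of any pair of libraries was 0.980, between ATF7 clone 1 replicate 1 and JDP2 clone 2 replicate 1. The median correlation was 0.971 within lines and 0.963 between them. Libraries of 1 line differed by more than sampling noise (chi-square per gene at least 90.5), and some pairs of different lines were closer. ATF7 clone 1 and JDP2 clone 1 gave 59.6 for their first replicates, and ATF7 clone 1 and JDP2 clone 2 gave 80.8 for their second. Gene positions are from RefSeq, and windows of neighbours from GENCODE, both on hg38.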

Additional observations from a re-analysis of the deposited data

Results flagged for a closer look

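For each gene named and for some library-wide values, the 5 controls formed 1 group and the 8 knockouts, which pool 4 clones, another. The gap between the extreme library and its nearest neighbour was compared with the group's range by Dixon's 95% limit. The same libraries recur throughout, so the groups are not independent. Chance exceeds the limit in about 5% of groups, and 21 of 334 groups did. JDP2 knockout clone 1 replicate 2 was the outlying library in 15 of them. It was high among the 8 knockouts for PHLDA2 (gap over range 0.627), CEBPB (0.538), NHP2 (0.734), MRPS6 (0.673), SEC61B (0.569), BATF3 (0.596) and ENSG00000286022 (0.788). It was low for PARP14 (0.57), MT-ND4 (0.632), TUBB (0.756), ATF2 (0.664), TBC1D5 (0.567) and CORO2A (0.536). The same library was high for the share of genes far from their median (0.657) and for the deviation of genes over 60% GC (0.703). JDP2 knockout clone 1 replicate 1 was low for GLA (0.583), and ATF7 knockout clone 2 replicate 1 was low for NTPCR (0.574). Among the 5 controls, knockout control replicate 1 was low for CIITA (0.841) and high for SETD4 (0.824). Reads were highest in knockout control replicate 2 among controls (0.835) and in JDP2 knockout clone 2 replicate 1 among knockouts (0.761).

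Differences from controls that themselves differed among the 4 clones by the limma F test were those of CXCL16 (adjusted p = 6.53e-05), CIITA (0.00182), MYL6B (0.0021), HEMK1 (0.016), NOD2 (0.029), CCL5 (0.0339), PRDX2 (0.0364) and CD68 (0.0476). MYL6B, a myosin light chain, averaged 1764 ± 210.0 (SD, n = 5) normalized counts in controls and 598 ± 452 (SD, n = 8) in knockouts. NOD2 also differed between the JDP2 and ATF7 knockouts (limma adjusted p = 0.0192).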

How the results depend on the processing

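The pooled count of 1042 genes was 621 without the filter on low values, 255 with edgeR on recovered reads (40 higher, 215 lower), 1579 with DESeq2 (871 higher, 708 lower), 311 without the line block, 0 with libraries averaged by line, and 2367 with array weights. It was 218 against the knockout control only, 14 against the shRNA control and wild type only, 2155 with ATF7 knockout clone 1 left out, 69 with JDP2 knockout clone 2 left out, and 518 with a GC and length trend removed and no line block. Leaving out 1 library gave 50 to 1954. Same-numbered libraries did not deviate together throughout (correlations of -0.54 to 0.58 between groups), so the numbers were not taken to pair them in the main fit. The replicate block, used as an alternative and to define the core, gave 113 genes (8 higher, 105 lower). Calls in each of 4 clones were 3 with quantile normalization, 5 against the knockout control only, 2 with array weights, 2 with the GC and length trend removed, 5 without the 2 far libraries, and 0 to 5 with 1 library left out. The JDP2 knockout minus ATF7 knockout count was 4 with quantile normalization, 3 with TMM factors and 0 to 7 with a library left out. Genes with no overlap numbered 3382 with libraries averaged by line, 1779 against the knockout control only, 911 against the shRNA control and wild type only, 1033 and 768 with ATF7 knockout clone 1 or 2 left out, 701 without the 2 far libraries, and 441 to 754 with 1 library left out. The F test among clones gave 68 to 1364 with a library left out. Reversals occurred only in genes that did not pass. These were ATF7 (TMM -0.020, knockout control only -0.12, ATF7 knockout clone 1 or 2 left out -0.19 and -0.099, libraries left out -0.18 to 0.19), CD86 (edgeR 0.26, DESeq2 0.28, knockout control only 0.084, JDP2 knockout clone 1 left out 0.40, libraries left out -0.66 to 0.096), CREB5 (edgeR 0.072, DESeq2 0.094, JDP2 knockout clone 2 left out 0.15, GC trend removed with no line block 0.0065, libraries left out -0.39 to 0.0083), TNF (replicate block -0.083, ATF7 knockout clone 1 left out -0.13, JDP2 knockout clone 1 left out -0.042, libraries left out -0.25 to 0.38), FOS (knockout control only 0.098), C5AR1 (ATF7 knockout clone 1 left out -0.17, libraries left out -0.037 to 0.44) and MT-ND4 (JDP2 knockout clone 1 left out 0.012). Of 137 named genes that passed, 107 still did without the line block, 95 with edgeR, 132 with DESeq2, 123 with the GC and length trend removed, 68 against the knockout control only and 11 against the shRNA control and wild type only, and none reversed. Core genes are among the 137, and by definition they pass without the line block. Their separation also largely fixes their direction, so neither the 107 nor the lack of reversals adds support. The GC trend and the 2 far libraries were alternatives chosen after seeing the data. The causes of these differences were not tested.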
